A study of Mus musculus with 12 samples.

Results

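The transcripts of DNA damage sensing and repair genes were followed in the mouse hippocampus across 3 groups of 4 mice. The members were taken by gene symbol from a list of 40 genes, of which 39 stood in the deposited table of 756 genes and 1, Ercc6, was not analysed here. A mean of at least 20 normalized counts over the 12 mice was required, which 37 of the 39 reached, among 695 genes of the table that did. Brca1, with a mean of 19.4, and Exo1, with 18.3, fell just short, while Fancd2, with 22.2, and Chek1, with 30.5, lay closest above the limit. The 37 genes comprise 7 of base excision repair, 1 of mismatch repair, 9 of double-strand break repair, 3 of the Fanconi anaemia pathway and 10 of the damage checkpoint, together with 2 of nucleotide excision repair, 1 of direct reversal and 4 of replication and gap filling.

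The Tg-TPPU mice were 5xFAD transgenic mice given TPPU at 3 mg/kg through their drinking water, which held 1% polyethylene glycol 400, for 2.5 months beginning at an age of 2 months. The Tg vehicle mice were 5xFAD mice given the 1% polyethylene glycol 400 without TPPU, and the N-Tg vehicle mice were littermates without the transgenes that received the same vehicle. TPPU blocks soluble epoxide hydrolase, an enzyme that hydrolyses epoxides of fatty acids. The 5xFAD strain expresses mutant human transgenes of inherited Alzheimer's disease from a Thy1 promoter, which directs them to neurons, so amyloid arises here from overexpressed transgenes. No group of N-Tg mice received TPPU, so the compound was compared with vehicle only in transgenic mice.

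The assay was NanoString's nCounter, here with its Mouse Neuroinflammation panel: barcoded probes bind transcripts and are counted without amplification. The values are normalized counts, scaled by the authors to 10 housekeeping genes. Each mouse gave a total of 1050334 to 1314362 counts. All 12 mice are labelled male. In 6 of them, 2 of each group, the Y-linked gene Uty gave only 15.2 to 33.5 normalized counts and Kdm5d 14.2 to 22.8, which conflicts with that label; the remaining mice gave 366 to 518 and 306 to 369. Ttr, the choroid plexus gene for transthyretin, stood at 4270 in Tg vehicle mouse 1 and 16461 in N-Tg vehicle mouse 4, while 10 mice had 77.1 to 284. No member passed the test in any comparison with Y-linked status as a block or without both mice of high Ttr, as with all 12 mice. Those low values serve as a gauge of low counts, and 4 listed members (Exo1, Brca1, Fancd2 and Chek1) had means no higher than 33.5.

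Cells meet DNA damage with several pathways. Base excision repair removes oxidised, alkylated or deaminated bases through glycosylases, an abasic endonuclease and gap filling, and is the main route for the oxidative lesions of neurons, which no longer divide. Mismatch repair and the Fanconi anaemia pathway act largely around replication, on wrong base pairs and on crosslinked strands. Double-strand breaks are recognised by the Mre11-Rad50-Nbn complex and marked by phosphorylated histone H2AX, and the kinases Atm and Atr pass the signal to Chek2, Chek1 and p53. These steps run largely on protein modification, so transcript levels describe the supply of the machinery and not its activity.

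Several repair genes are known targets of E2F, the transcription factors of the G1 to S transition. The members' promoters were searched on both strands for the E2F octamers TTTCCCGC, TTTGGCGC, TTTCGCGC and TTTGCCGC. The search covered the 250 bases before the start given with each promoter (GRCm38.p6). That start need not be the outermost RefSeq start of the gene. The Chek2, Fancg, Topbp1 and Xrcc6 matches below lie inside the annotated RefSeq gene. Promoters were at hand for 31 of the 37 members; those of Rad50, Nbn, H2afx, Fancd2, Ddb2 and Pole were not used here. 6 of the 31 genes, 19.4%, held an octamer, against 29 of the 547 tested panel genes with a promoter, 5.3%, in which the members are included, and 2.72% of 17492 protein-coding genes. The 6 matches are printed because they are the sequence feature, of the 3 searched, whose share differed most in proportion from that of protein-coding genes. The octamer as it reads on the gene's strand is in capitals, with up to 16 bases on either side.
Chek2: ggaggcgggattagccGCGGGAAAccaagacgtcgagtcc
Fancg: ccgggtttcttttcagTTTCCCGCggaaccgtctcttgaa
Mdc1: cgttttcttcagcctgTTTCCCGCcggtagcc
Nthl1: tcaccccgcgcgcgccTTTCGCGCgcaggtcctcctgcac
Topbp1: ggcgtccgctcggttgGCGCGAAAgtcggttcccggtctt
Xrcc6: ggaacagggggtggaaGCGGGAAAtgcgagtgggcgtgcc

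The Chek2 window lies at chr5:110839815-110839854 on the plus strand, the Fancg window at chr4:43010330-43010369 on the minus strand and the Mdc1 window at chr17:35841466-35841497 on the plus strand. The Nthl1 window lies at chr17:24632534-24632573, the Topbp1 window at chr9:103305182-103305221 and the Xrcc6 window at chr15:82016307-82016346, all on the plus strand. The first base of the octamer stands 152 bases before the promoter's start in Chek2, 132 in Nthl1 and 129 in Topbp1. It stands 52 bases before that start in Fancg, 46 in Xrcc6 and 16 in Mdc1. The members' promoters were also richer in G and C, with a median of 61.4% against 52.4% over all promoters. The median of the tested panel genes was not taken, so this may hold for the panel as a whole. The GC box GGGCGG stood in 21 of the 31 genes, 67.7%, against 62% of the tested panel genes and 45.8% of protein-coding genes, and CCAAT in 16 of 31, 51.6%, against 36% and 39.5%. A match is a run of letters and does not show that a factor binds there.

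The comparison of Tg vehicle with N-Tg vehicle mice asked how the transgenes move these transcripts. None of the 37 genes passed the test (limma, Benjamini-Hochberg adjusted p under 0.05 over 695 genes), in a comparison in which 18.7% of the tested genes were called higher and 0 of 695 lower. At an unadjusted p under 0.05, 4 of 37 were higher (Fancd2, Trp53, Mgmt and Pole) and 0 lower, against a background of 28.1% higher and 1.01% lower. The median change of the 37 was 0.07 on the log2 scale, against 0.13 over all tested genes, and 26 of 37 estimates were above 0, against 502 of 695. Without Tg vehicle mouse 3 the members' median was 0.02, without Tg vehicle mouse 1 it was 0.14 and without N-Tg vehicle mouse 2 it was 0.12. The members' estimates ran from -0.18 (Parp1) to 0.70 (Fancd2), against -0.90 to 4.89 over all tested genes. The 95% interval of the change lay within 1.5-fold in either direction for 29 of 37 genes and within 2-fold for 35, against 320 and 483 of the 695.

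These directions rest on the deposited scale. The level of a mouse's median gene differed by 0.284 log2 for Tg vehicle minus N-Tg vehicle mice and by -0.202 for Tg-TPPU minus Tg vehicle mice. When each mouse was centred on its median gene, 5 of the 37 were called lower in Tg vehicle mice, with adjusted p from 0.0252 to 0.0449, against a background of 12.7% lower and 14.7% higher on that scale. Those 5 were Parp2, Rad17, Rpa1, Ercc2 and Hus1. After this centring 5 of the 37 estimates were above 0, against 26 on the deposited scale, and the members' median was -0.22.

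**Figure D1:**
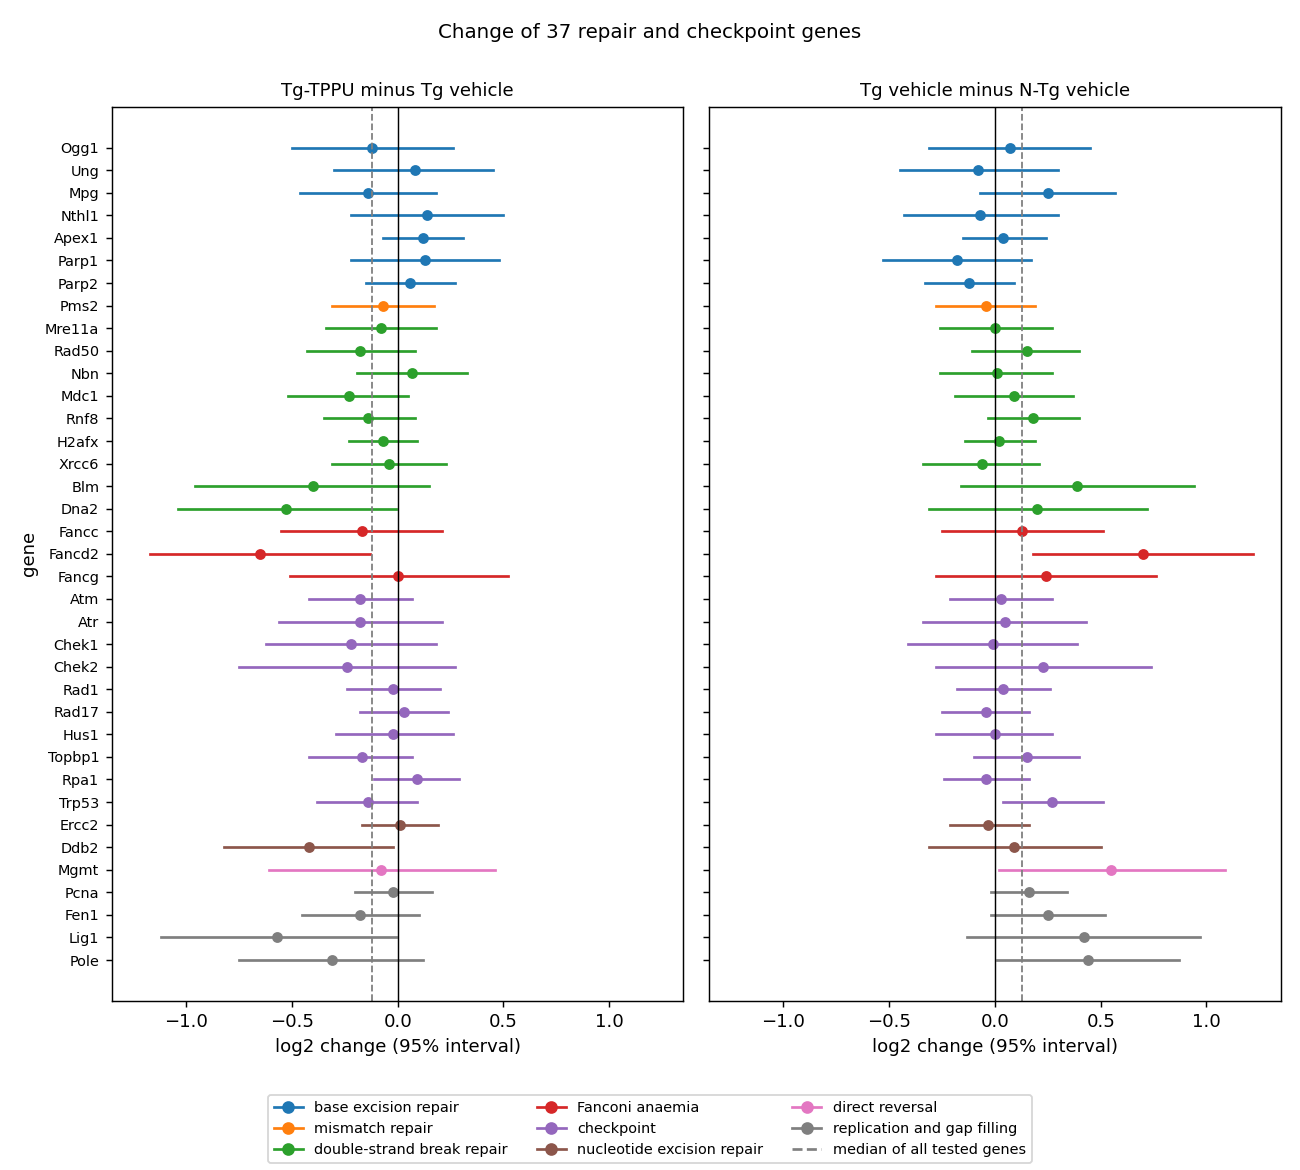
Log2 change of each of the 37 genes (point) with its 95% interval (line), coloured by class, for Tg-TPPU minus Tg vehicle mice on the left and Tg vehicle minus N-Tg vehicle mice on the right (n = 4 each). The dashed line marks the median of the 695 tested genes, -0.12 on the left and 0.13 on the right; the Fancd2 interval lies clear of 0 in both, and no gene passed the adjusted threshold.

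None of the 7 base excision repair genes passed the test on the deposited scale. Their estimates for Tg vehicle minus N-Tg vehicle mice ran from -0.18 to 0.25 with a median of -0.07, and the interval of each of the 7 lay within 1.5-fold. The member with the smallest p was Mpg, the glycosylase for alkylated purines, at 225, 210, 217 and 180 normalized counts in Tg vehicle mice and 159, 197, 195 and 151 in N-Tg vehicle mice. The groups overlapped through Tg vehicle mouse 4, and the change of 0.25 (SE 0.15, 1.19-fold, interval 0.95 to 1.49) had a limma adjusted p of 0.294. Median centring brought it to -0.04.

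Ogg1, which excises oxidised guanine, averaged 108 ± 25.1 in Tg vehicle and 102 ± 9.01 in N-Tg vehicle mice (SD, n = 4 each), and Ung, the uracil glycosylase, 93.1 ± 15.2 and 98.6 ± 20.2. Nthl1, which removes oxidised pyrimidines, averaged 90.6 ± 9.24 in Tg vehicle and 95.8 ± 17.5 in N-Tg vehicle mice. On the deposited scale these 3 glycosylases differed between the genotypes by less than the spread between mice. Quantile normalization called all 3 lower, Ung at -0.79, Nthl1 at -0.76 and Ogg1 at -0.63 (limma adjusted p 0.0076, 0.00766 and 0.0386). Parp2 was called lower at -0.41 after median centring and after quantile normalization (limma adjusted p 0.0252 and 0.033). Apex1, the endonuclease that opens the strand at abasic sites, averaged 608 ± 49.8 and 589 ± 27.2, an interval of 0.903- to 1.18-fold. Parp1, the polymerase that senses strand breaks, spread widely between mice of a group, from 1036 to 1663 in Tg vehicle and from 1214 to 1930 in N-Tg vehicle mice. The variance of Parp1 between mice was 42.2 times that of counting alone, more than for any other of the 37.

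Mismatch repair was represented by Pms2, an endonuclease of this pathway, since Exo1 lay under the minimum. Pms2 stood at 633, 582, 557 and 493 in Tg vehicle mice and at 569, 635, 620 and 511 in N-Tg vehicle mice. The groups covered nearly the same range. The change of -0.04 (SE 0.11, 0.97-fold, interval 0.822 to 1.14) had an adjusted p of 0.856 in the same limma fit, and it came to 0.02 without Tg vehicle mouse 4.

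Of the 9 double-strand break genes, 8 had an estimate above 0 between Tg vehicle and N-Tg vehicle mice, with a median of 0.09 and a range from -0.06 (Xrcc6) to 0.39 (Blm); after median centring only Blm, at 0.11, was above 0. No subunit of the break sensor passed the test. Mre11a, its nuclease, averaged 302 ± 20.2 in Tg vehicle and 303 ± 41.4 in N-Tg vehicle mice, Rad50, its ATPase, 239 ± 18.5 and 216 ± 10.9, and Nbn, the subunit that recruits Atm, 293 ± 23.9 and 293 ± 41.9. H2afx, the histone whose phosphorylation marks breaks, averaged 2050 ± 75.6 and 2019 ± 142, with an interval of 0.909- to 1.14-fold that is the narrowest of this class.

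The smallest p among them belonged to Rnf8, the ubiquitin ligase that Mdc1 recruits to breaks. It stood at 816, 847, 957 and 878 in Tg vehicle mice and at 746, 834, 788 and 713 in N-Tg vehicle mice. The ranges overlapped between 816 and 834, and the change of 0.18 (SE 0.10, 1.13-fold, interval 0.979 to 1.32) had a limma adjusted p of 0.243, with a value of -0.10 after median centring. Blm, the helicase lost in Bloom syndrome, averaged 74.3 ± 10.3 in Tg vehicle and 58.5 ± 19.9 in N-Tg vehicle mice, with a wide interval of 0.893- to 1.92-fold.

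Fancd2, the protein that the Fanconi anaemia core complex tags with ubiquitin, came nearest to the threshold of all members. It stood at 26.5, 31.4, 23.2 and 37.9 normalized counts in Tg vehicle mice and at 17.4, 19.9, 12.5 and 21.9 in N-Tg vehicle mice. Every Tg vehicle mouse was above every N-Tg vehicle mouse, which held for Fancd2 alone among the 37 genes and for 21.6% of all tested genes, with 0.144% apart the other way. The change was 0.70 log2 (SE 0.24), 1.63-fold with a 95% interval from 1.14 to 2.33, at a limma p of 0.0123 and an adjusted p of 0.0618.

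Fancd2 passed the minimum only through the Tg vehicle group, at 29.8 ± 6.42, since Tg-TPPU mice averaged 18.8 ± 4.56 and N-Tg vehicle mice 17.9 ± 4.05. With no minimum the adjusted p was 0.0708. Its counts lay within the 15.2 to 33.5 that Uty gave in the 6 mice of low Y-linked signal, apart from 37.9 in Tg vehicle mouse 4, 12.5 in N-Tg vehicle mouse 3 and 12 in Tg-TPPU mouse 3. The call depended on the settings: Fancd2 passed at an adjusted p of 0.0466 with a prior spread that does not follow the mean, and at 0.0324 without Tg-TPPU mouse 3, which enters through the shared spread. It passed in 3 of 24 alternatives, these included, and its adjusted p reached 0.511 after quantile normalization, while its change stayed above 0 in all 24. The core complex subunits Fancc, at 158 ± 17.8 and 146 ± 29.8, and Fancg, at 210 ± 73.3 and 172 ± 24.5 in Tg vehicle and N-Tg vehicle mice, had adjusted p of 0.701 and 0.564 in the limma fit.

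**Figure D2:**
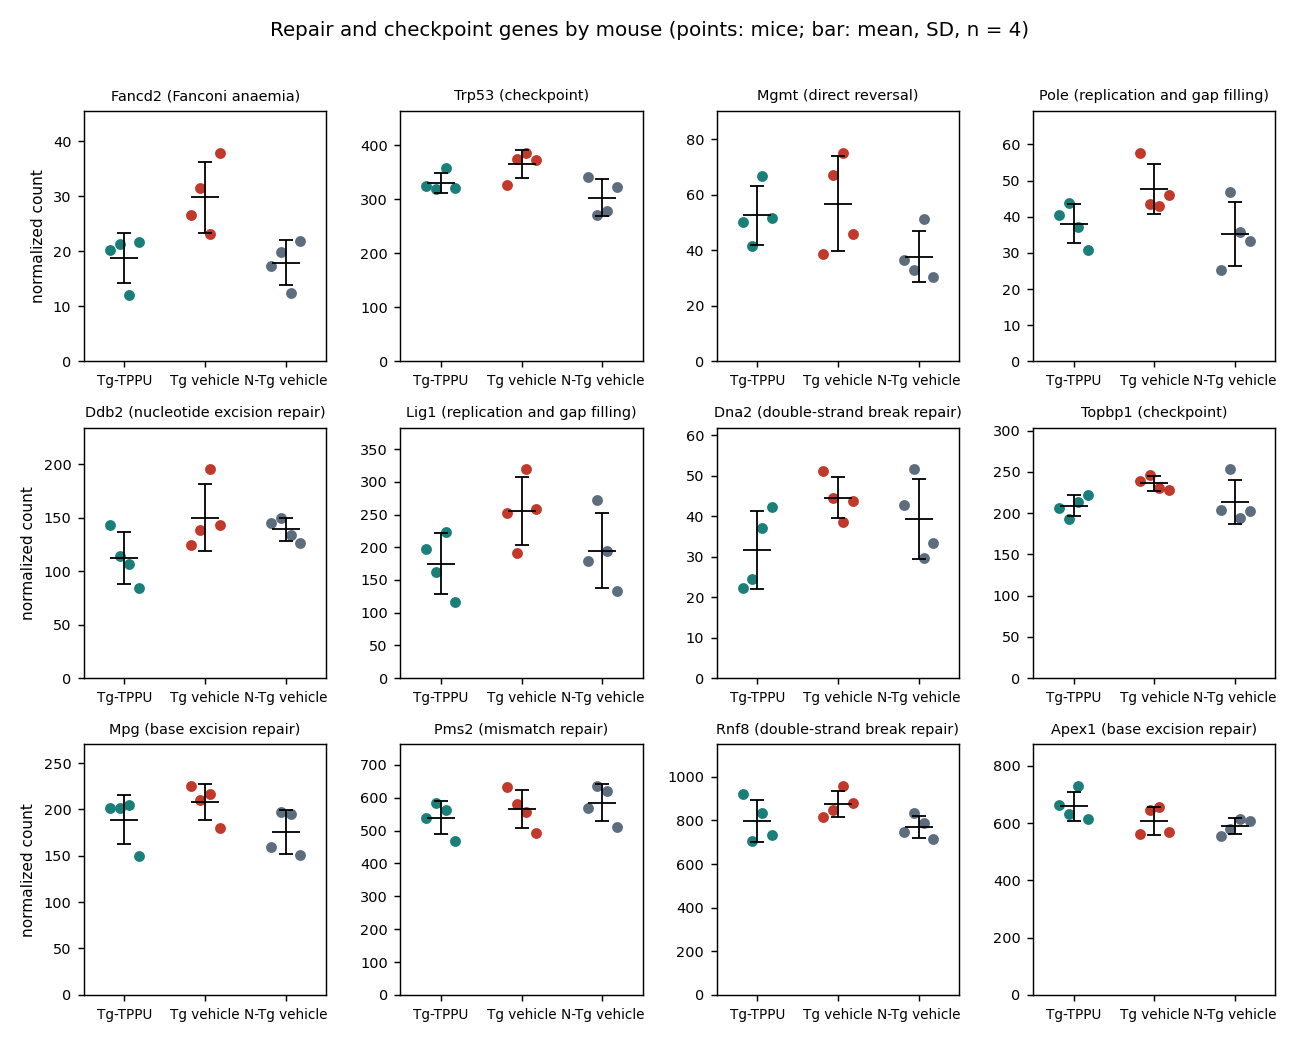
Normalized counts of 12 genes in each mouse (points), with the group mean and SD (bars, n = 4), for Tg-TPPU, Tg vehicle and N-Tg vehicle mice from left to right. The Tg vehicle mice lie above both other groups for Fancd2 and above the Tg-TPPU mice for Topbp1; in the other panels the vehicle-treated groups overlap, and only for Apex1 do the Tg-TPPU mice lie wholly above the N-Tg vehicle mice.

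Of the checkpoint genes none was called on the deposited scale. The 10 estimates between Tg vehicle and N-Tg vehicle mice ran from -0.04 to 0.27 with a median of 0.03, and 9 of 10 intervals lay within 1.5-fold. The apical kinases Atm, at 330 ± 24.7 and 323 ± 26.5, and Atr, at 171 ± 27 and 166 ± 35.1 in Tg vehicle and N-Tg vehicle mice, had estimates of 0.03 and 0.05. Atr was called lower after quantile normalization, at -0.51 (limma adjusted p 0.0485), and so was Chek1, at -0.61 (adjusted p 0.0185). Of the effector kinases, Chek1 averaged 31.7 ± 1.66 and 32.1 ± 3.41, and Chek2 58.8 ± 12.2 and 49.7 ± 7.96. On the deposited scale the subunits Rad1 and Hus1 of the 9-1-1 clamp, placed on damaged DNA by Rad17, had estimates of 0.04 and 0.00, and Rad17 of -0.04. Median centring called Rad17 lower at -0.33, Hus1 at -0.28 and Rpa1 at -0.32 (limma adjusted p 0.038, 0.0442 and 0.0449). Quantile normalization called Rad17 lower at -0.46 and Hus1 at -0.32 (limma adjusted p 0.0203 and 0.0344).

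Trp53, the gene for p53, had the smallest p of the class. It stood at 327, 374, 386 and 372 in Tg vehicle mice and at 341, 270, 278 and 323 in N-Tg vehicle mice. Tg vehicle mouse 1 lay within the N-Tg range and the other 3 above it. The change of 0.27 (SE 0.11, 1.21-fold, interval 1.03 to 1.42) had a limma adjusted p of 0.105, and it came to -0.01 after median centring and -0.03 after quantile normalization.

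Outside these classes, Mgmt, which takes alkyl groups off guanine, stood at 38.8, 66.9, 75.1 and 45.9 in Tg vehicle mice and at 36.6, 32.8, 51.1 and 30.5 in N-Tg vehicle mice. Only Tg vehicle mice 2 and 3 lay above the N-Tg range. The change of 0.55 (SE 0.25, 1.47-fold, interval 1.01 to 2.13) had a limma adjusted p of 0.157, and it was -0.12 after quantile normalization. Of the nucleotide excision genes, Ddb2, which recognises ultraviolet lesions, averaged 150 ± 31.3 and 139 ± 10.6 in Tg vehicle and N-Tg vehicle mice, with an adjusted p of 0.818 in limma, and Ercc2, the XPD helicase of TFIIH, 658 ± 43.4 and 671 ± 49.6.

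All 4 replication and gap filling genes had estimates above 0, from 0.16 (Pcna) to 0.44 (Pole), and all 4 were below 0 after quantile normalization, from -0.19 (Pole) to -0.05 (Lig1 and Pcna). Pole, the catalytic subunit of DNA polymerase epsilon, stood at 57.7, 43.6, 43 and 45.9 in Tg vehicle mice and at 25.3, 46.7, 35.8 and 33.4 in N-Tg vehicle mice. N-Tg vehicle mouse 2 overlapped the Tg vehicle range. The change of 0.44 (SE 0.20, 1.36-fold, interval 1.01 to 1.83) had an adjusted p of 0.161 in limma, and it was -0.19 after quantile normalization. Pcna, the sliding clamp, averaged 1540 ± 144 and 1378 ± 61.1, Fen1, the flap endonuclease, 332 ± 46.8 and 279 ± 34.5, and Lig1, the ligase of Okazaki fragments, 256 ± 52 and 195 ± 58 in Tg vehicle and N-Tg vehicle mice, with adjusted p of 0.24, 0.217 and 0.304.

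Within transgenic mice, the comparison of Tg-TPPU with Tg vehicle asked what the inhibitor does to the same transcripts. It uses the same Tg vehicle mice as the genotype comparison, so a Tg vehicle mouse with high counts raises that change and lowers this one. No member was called, nor was any other of the 695 genes (0% called in limma). At an unadjusted p under 0.05, 4 of 37 members were lower (Fancd2, Ddb2, Lig1 and Dna2) and 0 higher, against 17.1% of tested genes lower and 1.01% higher. The members' median was -0.12, equal to that of all tested genes, and 27 of 37 estimates were below 0, against 489 of 695. Without Tg-TPPU mouse 4 the members' median was -0.07, without Tg-TPPU mouse 2 or Tg vehicle mouse 3 it was -0.08, and without Tg vehicle mouse 1 it was -0.16. Intervals lay within 1.5-fold for 28 of 37 and within 2-fold for 34, against 350 and 522 of 695.

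Fancd2 stood at 20.2, 21.3, 12 and 21.6 normalized counts in Tg-TPPU mice, against the 26.5, 31.4, 23.2 and 37.9 of the Tg vehicle mice. The groups did not overlap, as for 4.32% of tested genes in this direction and 0.576% in the other. Fancd2 passed the minimum only through the Tg vehicle group, which is compared here, and its counts were low. Its separation is therefore no independent support for a change. The change of -0.65 (SE 0.24, 0.639-fold, interval 0.446 to 0.916) had a limma p of 0.0191 and an adjusted p of 0.212. Topbp1, the activator of Atr, was the other member whose groups stood apart, at 206, 193, 214 and 222 in Tg-TPPU mice and 239, 246, 230 and 228 in Tg vehicle mice. Its change was small, -0.17 (SE 0.11, 0.886-fold), with a limma adjusted p of 0.434. The Topbp1 change was 0.03 after median centring, 0.15 after quantile normalization and -0.07 after median-ratio centring.

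Ddb2 stood at 143, 114, 107 and 84.4 in Tg-TPPU mice and at 124, 138, 195 and 143 in Tg vehicle mice. The groups overlapped from 124 to 143, and the change of -0.42 (SE 0.18, 0.748-fold, interval 0.566 to 0.988) had an adjusted p of 0.259 by limma. Lig1 stood at 197, 162, 223 and 116 in Tg-TPPU mice and at 253, 192, 319 and 259 in Tg vehicle mice. Its change of -0.57 (SE 0.25, 0.675-fold, interval 0.461 to 0.99) had a limma adjusted p of 0.267, and its variance between mice was 13 times that of counting. Dna2, the nuclease and helicase that trims broken ends, stood at 22.4, 24.5, 37.2 and 42.2 in Tg-TPPU mice and at 51.1, 44.6, 38.6 and 43.9 in Tg vehicle mice. Tg-TPPU mouse 4 overlapped the Tg vehicle range, and the change of -0.53 (SE 0.24, 0.695-fold, interval 0.486 to 0.993) had an adjusted p of 0.27 in limma.

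By class, 8 of 9 double-strand break genes and 8 of 10 checkpoint genes had estimates below 0 under TPPU, with medians of -0.14 and -0.16, against 489 of 695 below 0 over all tested genes. The base excision genes went the other way in sign, with 5 of 7 estimates above 0 and a median of 0.08, and all 7 intervals lay within 1.5-fold. These signs moved with the scale too: 28 of the 37 estimates were above 0 after median centring, against 10 on the deposited scale, and the 4 members of smallest p became smaller. Quantile normalization left Fancd2 at -0.39, Lig1 at -0.33, Dna2 at -0.23 and Ddb2 at -0.03. Apex1 averaged 659 ± 50.5 in Tg-TPPU and 608 ± 49.8 in Tg vehicle mice, Parp1 1465 ± 134 and 1353 ± 257, and Nthl1 100 ± 12.6 and 90.6 ± 9.24, with adjusted p of 0.511, 0.681 and 0.666. In each the groups overlapped. Pms2 averaged 539 ± 49.8 in Tg-TPPU and 566 ± 58 in Tg vehicle mice. Of the replication genes, Pcna averaged 1514 ± 103 and 1540 ± 144, Fen1 291 ± 10.6 and 332 ± 46.8, and Pole 38.1 ± 5.5 and 47.6 ± 6.86.

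Tg-TPPU mice were also set against N-Tg vehicle mice, a comparison that shares its mice with both others. None of the 37 members had an unadjusted p under 0.05, against 13.7% of tested genes higher and 1.01% lower, and none of the 695 passed the adjusted threshold in limma (0% called). The members' median was -0.02, against 0.06 over all tested genes, and 31 of 37 intervals lay within 1.5-fold. Apex1 was the 1 member whose groups stood apart, at 664, 631, 729 and 615 in Tg-TPPU mice and 555, 580, 613 and 609 in N-Tg vehicle mice, as for 6.19% of tested genes in this direction and 0.863% in the other. The lowest Tg-TPPU mouse exceeded the highest N-Tg vehicle mouse by little, and the change of 0.16 (SE 0.09, 1.12-fold, interval 0.979 to 1.28) had an adjusted p of 0.461. It was 0.08 after median centring and after median-ratio centring, and 0.01 after quantile normalization. Fancd2 averaged 18.8 ± 4.56 in Tg-TPPU and 17.9 ± 4.05 in N-Tg vehicle mice, with an interval of 0.726- to 1.49-fold.

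A mean log2 level per mouse, relative to the N-Tg vehicle mean, shows how the classes sat in each animal. For base excision repair it was 0.05, 0.02, 0.06 and -0.03 in Tg-TPPU, -0.06, 0.04, 0.08 and -0.11 in Tg vehicle and -0.06, 0.07, 0.04 and -0.04 in N-Tg vehicle mice. The 3 groups covered the same range, but after median centring the Tg vehicle mice, at -0.41 to -0.20, lay below the N-Tg vehicle mice, at -0.13 to 0.09. For double-strand break repair it was -0.05, -0.18, 0.07 and -0.11 in Tg-TPPU mice, 0.10, 0.10, 0.11 and 0.12 in Tg vehicle mice and -0.02, 0.22, -0.04 and -0.16 in N-Tg vehicle mice. The Tg vehicle mice lay above every Tg-TPPU mouse, with N-Tg vehicle mouse 2 above them all. The separation was lost after median centring, where Tg-TPPU mice ran from -0.18 to -0.09, Tg vehicle mice from -0.38 to -0.04 and N-Tg vehicle mice from -0.12 to 0.20.

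For the Fanconi genes the mean ran from -0.06 to 0.28 in Tg-TPPU, 0.13 to 0.53 in Tg vehicle and -0.06 to 0.13 in N-Tg vehicle mice. For the checkpoint it ran from -0.14 to 0.12, -0.07 to 0.19 and -0.06 to 0.06, so the groups overlapped. After median centring the checkpoint groups stood apart, at -0.13 to -0.11 in Tg-TPPU, -0.30 to -0.17 in Tg vehicle and -0.01 to 0.02 in N-Tg vehicle mice. The Fanconi groups then overlapped, at -0.25 to 0.23, -0.01 to 0.19 and -0.11 to 0.11. For replication and gap filling the mean on the deposited scale was 0.12, 0.09, 0.16 and -0.18 in Tg-TPPU mice. It was 0.41, 0.19, 0.35 and 0.31 in Tg vehicle mice and -0.13, 0.30, 0.01 and -0.18 in N-Tg vehicle mice. All 4 Tg vehicle mice were above all 4 Tg-TPPU mice on this scale, but after median centring the groups overlapped, at -0.25 to 0.12 in Tg-TPPU and -0.13 to 0.27 in Tg vehicle mice. Over all 37 genes the mean ran from -0.08 to 0.09 in Tg-TPPU, 0.05 to 0.21 in Tg vehicle and -0.09 to 0.12 in N-Tg vehicle mice, while over the 695 tested genes it ran from -0.02 to 0.31, 0.18 to 0.57 and -0.08 to 0.09. The span of the 37 was the smaller on the deposited scale. After median centring the 37 ran from -0.16 to -0.02 in Tg-TPPU, -0.28 to -0.09 in Tg vehicle and -0.09 to 0.10 in N-Tg vehicle mice. The 695 then ran from 0.01 to 0.15, 0.04 to 0.14 and -0.02 to 0.02. Differences between classes were not tested.

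**Figure D3:**
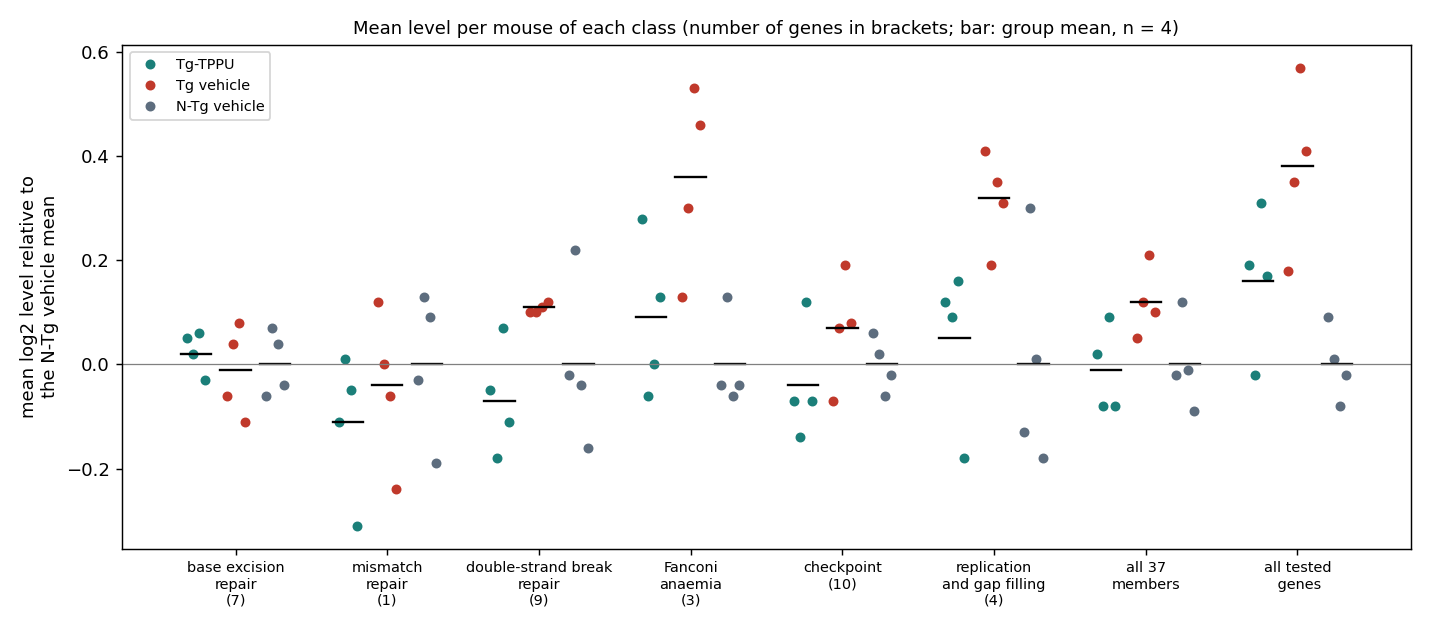
Mean log2 level of the genes of each class in each mouse (points), relative to the N-Tg vehicle mean, with group means as bars (n = 4), for Tg-TPPU, Tg vehicle and N-Tg vehicle mice from left to right in each class. On the deposited scale the base excision means lie between -0.11 and 0.08 in all 12 mice. The replication means lie between 0.19 and 0.41 in Tg vehicle mice, above the -0.18 to 0.16 of Tg-TPPU mice. After median centring (not drawn) the replication means overlap, at -0.25 to 0.12 in Tg-TPPU and -0.13 to 0.27 in Tg vehicle mice. Tg vehicle then lies below N-Tg vehicle for base excision, at -0.41 to -0.20 and -0.13 to 0.09, and for the checkpoint, at -0.30 to -0.17 and -0.01 to 0.02.

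Genes around the pathway were taken from lists. Of 13 tested genes of the p53 response, 1 was called higher in Tg vehicle than in N-Tg vehicle mice and 0 lower, against the 18.7% of all tested genes called higher. That gene was Fas, the death receptor, which averaged 50.7 ± 2.27 in Tg vehicle and 32.1 ± 8.77 in N-Tg vehicle mice, a change of 0.68 (SE 0.18) with a limma adjusted p of 0.019. In Tg-TPPU mice Fas averaged 44.4 ± 2.85. The median of the 13 was 0.03, and the summed level of the list was 6900 to 7983 in Tg-TPPU, 7302 to 7571 in Tg vehicle and 6899 to 7339 in N-Tg vehicle mice. Of 9 other repair genes, 0 were called in the limma fit, and 0 had an unadjusted p under 0.05, in the genotype and in the TPPU comparison.

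The replication members are used by dividing cells as well as in repair, and proliferation markers and cell type markers were therefore set beside them. Of 7 tested proliferation genes, 0 were called by limma in any comparison, with 0 of 7 at an unadjusted p under 0.05 between the genotypes and under TPPU. Between Tg-TPPU and N-Tg vehicle mice 1 of 7 was lower at that level, against 1.01% of tested genes. That gene was Cdc7, at -0.32 with a limma adjusted p of 0.234. The summed level of the proliferation list was 836 to 925 in Tg-TPPU, 777 to 1019 in Tg vehicle and 845 to 928 in N-Tg vehicle mice. Microglial markers moved with genotype: 17 of 18 were called higher in Tg vehicle mice, and their summed level was 11533 to 37830 in Tg-TPPU, 32032 to 60389 in Tg vehicle and 9834 to 12690 in N-Tg vehicle mice. Of 5 astrocyte markers, 1 was called higher between the genotypes, and of 11 oligodendrocyte, 12 neuronal and 7 endothelial markers 0 were called in either direction. All 11 oligodendrocyte estimates were below 0, from -0.64 to -0.24 with a median of -0.41 and 1 at an unadjusted p under 0.05. The summed neuronal level was 77309 to 93914 in Tg-TPPU, 73037 to 86707 in Tg vehicle and 78524 to 83270 in N-Tg vehicle mice. The part of the microglial shift in the members' values was not tested, and in tissue RNA fewer cells of a type and less RNA per cell cannot be told apart.

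The changes of the 6 genes with an E2F octamer took both signs on the deposited scale. Between Tg vehicle and N-Tg vehicle mice their changes were 0.23 for Chek2, 0.24 for Fancg, 0.09 for Mdc1, -0.07 for Nthl1, 0.15 for Topbp1 and -0.06 for Xrcc6, with adjusted p from 0.433 to 0.856 in limma. Between Tg-TPPU and Tg vehicle mice they were -0.24 for Chek2, 0.00 for Fancg, -0.23 for Mdc1, 0.14 for Nthl1, -0.17 for Topbp1 and -0.04 for Xrcc6, with adjusted p from 0.361 to 0.997. After median centring all 6 were below 0 between the genotypes, from -0.35 (Nthl1 and Xrcc6) to -0.05 (Chek2 and Fancg). So were 32 of the 37 members. Under TPPU, median centring left Chek2 at -0.04 and Mdc1 at -0.03, and the others from 0.03 (Topbp1) to 0.34 (Nthl1). After quantile normalization all 6 were above 0 under TPPU, from 0.01 (Mdc1) to 0.56 (Nthl1), as were 33 of the 37 members.

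The precision of these values differed between members. The spread between mice of a group, as a coefficient of variation, ran from 5.05 to 26.2% with a median of 11.4%. For 9 of the 37 genes the variance between mice was at most 2 times that expected from counting alone. Fancd2, at 1.17, Pole, at 1.28, and Dna2, at 1.88, were among them. For Rad17, at 0.68, and Chek1, at 0.708, the variance was under that of counting. For 8 genes, led by Parp1, Fancg and Lig1, it was over 5 times counting. Counting intervals cover counting error only.

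Rescaling moved more calls than any other alternative that was run. The factor that relates the deposited values to whole counts was 1.03 to 1.09 in Tg-TPPU, 0.946 to 1.10 in Tg vehicle and 0.871 to 0.993 in N-Tg vehicle mice, so it differed between the groups. Between Tg vehicle and N-Tg vehicle mice, quantile normalization called 10 members lower and 0 higher, against 15% of tested genes lower and 11.5% higher, led by the glycosylases Ung at -0.79 (adjusted p 0.0076) and Nthl1 at -0.76 (adjusted p 0.00766) in limma. Their estimates were -0.08 and -0.07 on the deposited scale. Ogg1 was also called, at -0.63 (adjusted p 0.0386), against 0.07 on the deposited scale. The base excision, nucleotide excision and checkpoint genes made up all 10, and Parp2, Rad17, Ercc2 and Hus1 were called under both rescalings. With centring on the median ratio of all tested genes, 0 members were called by limma in a background of 5.32% lower and 15.4% higher, and the members' median was -0.11. Under TPPU no rescaling called a member, and the median moved to 0.08, 0.15 and -0.02 with median centring, quantile normalization and median-ratio centring. Which of these scales is right was not tested, since the housekeeping genes themselves were not in the table used here.

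**Figure D4:**
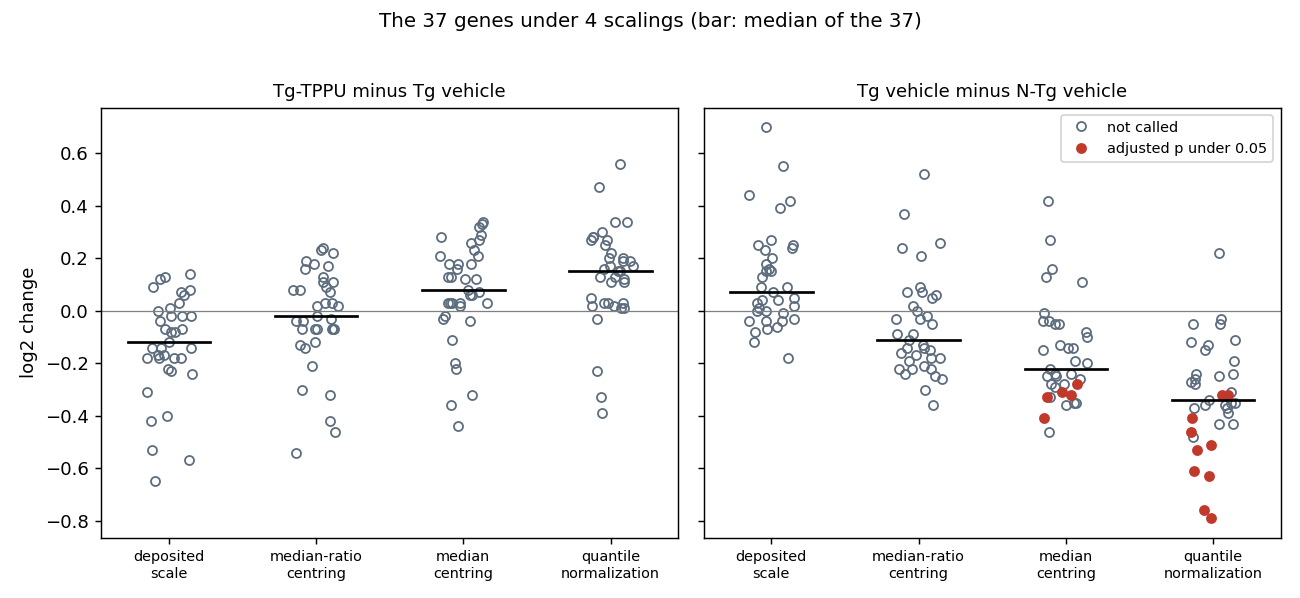
Log2 change of the 37 genes (points) on the deposited scale and after 3 rescalings, for Tg-TPPU minus Tg vehicle mice on the left and Tg vehicle minus N-Tg vehicle mice on the right (n = 4 each), with the median of the 37 as a bar. On the right the median moves to -0.34 after quantile normalization, against 0.07 on the deposited scale, and filled points mark the 5 and 10 genes called lower after median centring and quantile normalization.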

How the data were processed

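The 770 transcripts of the nCounter Mouse Neuroinflammation panel were measured in 12 hippocampi. The deposited values are a linear signal: probe counts that the authors normalized, per the labels, by a geometric mean over 10 housekeeping genes. Which software did so, and whether background was subtracted, is not stated in the labels or the file. Gene symbols came from the table, and 1 member, H2afx, matched the current symbol H2ax as a synonym. Each value was within 0.01 of a whole multiple of 1 factor per mouse. The whole numbers were used for the total counts, for counting precision and for the voom alternative, which fitted log values of them with weights.

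Log2 of the value plus 1 was fitted with limma 3.58.1 in R 4.3.3 for the 695 genes whose mean reached 20. The fit held all 3 groups, left 9 residual degrees of freedom and used a mean-dependent (trended) prior variance. P-values were adjusted by Benjamini-Hochberg over the 695 genes and called under 0.05; fold changes of low genes are understated by the added 1. Full statistics were given for members with an unadjusted p under 0.05 in a comparison and, in classes with fewer than 3 of these, for the member with the smallest p between the genotypes; Topbp1, Apex1, Uty, Kdm5d, Ttr and members named with means or ranges were chosen after values were seen. The members and lists were chosen with earlier results of these data known. Promoter sequences are RefSeq's (GRCm38.p6). Python 3.11.15 and matplotlib 3.10.9 drew the figures.

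Alternatives were pseudocounts of 0.1 and 10, no minimum and a mean of at least 50, median centring, quantile normalization, no trend, the mouse number or Y-linked status as a block, a fit of only those groups that are compared, and leaving out each mouse or both mice of high Ttr. The voom fit of the whole numbers and median-ratio centring were added after seeing the data. Comparisons by edgeR and DESeq2 were not run, since the deposited values are not counts.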

Additional observations from a re-analysis of the deposited data

Results flagged for a closer look

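Among 111 groups of 4 mice (37 genes in 3 groups), 8 held a mouse whose gap to the nearest other exceeded Dixon's 95% limit for 4 values; chance alone marks about 1 in 20. In Tg-TPPU mice, Mpg stood at 150 in mouse 4 against 201 to 205 in the others, Fancd2 at 12 in mouse 3 against 20.2 to 21.6, Fancg at 141 in mouse 2 against 222 to 233, and Hus1 at 393 in mouse 3 against 335 to 338. In Tg vehicle mice, Nbn stood at 328 in mouse 4 against 279 to 282, and Atm at 366 in mouse 3 against 315 to 319. In N-Tg vehicle mice, Parp2 stood at 507 in mouse 1 against 564 to 570, and Topbp1 at 253 in mouse 2 against 194 to 204.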

How the results depend on the processing

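No member was called in the comparisons of Tg-TPPU with Tg vehicle and with N-Tg vehicle mice under any of the 25 alternatives run in limma. Between Tg vehicle and N-Tg vehicle mice, median centring called 5 members and quantile normalization 10, all lower, and 1 (Fancd2) was called higher without the trend and with the replicate block; without each mouse in turn the count was 0 to 1, the 1 being Fancd2 without Tg-TPPU mouse 3. Mice of equal number in different groups correlated between -0.366 and 0.388 in their deviations from the group means. Mice of unequal number were not compared, so whether the number marks a pairing was not tested. With the mouse number as a block, Fancd2 had a limma adjusted p of 0.00996.

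The members' median change for Tg vehicle minus N-Tg vehicle mice was -0.22 with median centring, -0.34 with quantile normalization and -0.11 with median-ratio centring. For Tg-TPPU minus Tg vehicle mice it was 0.08, 0.15 and -0.02, and for Tg-TPPU minus N-Tg vehicle mice -0.10, -0.17 and -0.09. The cause was not tested for quantile normalization and median-ratio centring; the level of a mouse's median gene differed by 0.284, -0.202 and 0.0821 in these comparisons. Between Tg vehicle and N-Tg vehicle mice, 21, 25 and 14 of the 37 members changed sign in the same order of settings. Among the members given full statistics these were Ddb2 (-0.19, -0.53 and -0.09 in the same order), Mpg (-0.04 and -0.31), Rnf8 (-0.10 and -0.13) and Trp53 (-0.01 and -0.03) with median centring and quantile normalization, and Mgmt (-0.12) and Pole (-0.19) with quantile normalization. Without each mouse in turn, the members' median ran from 0.02 to 0.14 between the genotypes and from -0.16 to -0.07 under TPPU. Ddb2 ran from -0.04 to 0.18, below 0 without Tg vehicle mouse 3, and Pms2 from -0.11 to 0.02, above 0 without Tg vehicle mouse 4. Low counts limit Fancd2, Chek1, Dna2 and Pole most. The edgeR fits with the deposited scale and with TMM and the DESeq2 fit were not run.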
